A study of Homo sapiens with 8 samples.

Results

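The cytosolic ribosomal protein (RP) genes, which encode the protein components of the 40S and 60S ribosomal subunits, were examined in SK-UT-1 cells, an established human uterine leiomyosarcoma (uLMS) cell line. The cells had been exposed for 48 h to 5 µM TP-472, an inhibitor of the bromodomains of BRD9 and BRD7, or to vehicle (DMSO), with 4 libraries of total RNA per group. The members were chosen by gene symbol alone: RPL or RPS followed by a number and an optional letter A, X or L, together with RPLP0, RPLP1, RPLP2 and RPSA. This rule matched 81 of the 60282 genes in the count table, 32 of the 40S and 49 of the 60S subunit. The study's methods describe its experiments in general as biologically replicated, but do not say for these libraries what separates the 4 replicates of a group, so p-values measure only the spread between them. All cells are of a single line, so other uLMS cells are not represented. The summed count per library ranged from 32574716 (vehicle replicate 3) to 38545695 (TP-472 replicate 1).

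RPs are held at near-equal numbers in the ribosome, and their messages are among the most abundant in proliferating cells. Most RP messages begin with a terminal oligopyrimidine (TOP) tract, a run of C and T at the 5′ end through which mTORC1 and the RNA-binding protein LARP1 control their translation as a group. BRD9 and BRD7 are subunits of SWI/SNF chromatin remodelling complexes, and their bromodomains bind acetylated lysine.

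The bases around the transcription start are shown first for 7 of the 9 members that passed the test below, because the TOP tract is the sequence feature by which RP messages are usually grouped. RPL5 and RPL7 also passed and are not shown. RefSeq transcription starts on GRCh38.p14 matched 64 members. A run of at least 6 C or T bases touching positions -5 to +5 around a listed start was present for 53 of the 64 members (82.8%) and for 7162 of all 27305 genes in that table (26.2%). Each line gives 30 bases on the strand of the gene, 10 before the start and 20 from it, with the longest such pyrimidine run in capitals.
RPS15 (chr19:1438386-1438415, plus strand): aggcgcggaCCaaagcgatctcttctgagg
RPS26 (chr12:56041908-56041937, plus strand): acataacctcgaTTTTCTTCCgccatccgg
RPL35 (chr9:124861938-124861967, minus strand): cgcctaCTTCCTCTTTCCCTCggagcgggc
RPL14 (chr3:40457329-40457358, plus strand): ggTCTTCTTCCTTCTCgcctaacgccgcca
RPL28 (chr19:55385922-55385951, plus strand): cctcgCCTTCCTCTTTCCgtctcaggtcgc
RPL6 (chr12:112411423-112411452, minus strand): gtaTCCTCagtgaatcagaaccagaaaaag
RPL3 (chr22:39319604-39319633, minus strand): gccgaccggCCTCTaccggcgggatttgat
The run was 15 bases in RPL35, 14 in RPL14, 13 in RPL28 and 9 in RPS26. It was shorter than 6 bases in the other members shown, with 5 bases in RPL3 and in RPL6 (the longer run of 2 listed starts) and 2 bases in RPS15, where a further stretch of C and T lies downstream of the listed start. A run in this window is a description of the sequence, and the start used in these cells was not measured.

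Vehicle replicate 3 stood apart from the other libraries, so fold changes are given without it and with it. Levels below are CPM (counts per 1000000 counts) after TMM scaling, a scaling by library composition, over all 8 libraries. Of the 79 members that passed the expression filter of over 1 CPM in at least 4 libraries, 54 (68.4%) were lower in vehicle replicate 3 than in any of the other 3 vehicle libraries and 14 (17.7%) were higher. Over all 14073 genes tested these shares were 43.7% and 43.2%. The members of vehicle replicate 3 deviated from the mean of the other vehicle libraries by -1.69 to 1.09 on the log2 scale, with a median of -0.47. RPS12, a 40S protein, had the lowest deviation, at 129.5 CPM against 317, 488 and 476 CPM in vehicle replicates 1, 2 and 4. RPS13 was at 92.1 CPM against 209, 308 and 308 CPM, and RPL36A at 59.7 CPM against 128, 194 and 175 CPM. In the opposite direction, RPS19, the 40S protein that is mutated in Diamond-Blackfan anaemia, was at 1006 CPM against 482, 468 and 468 CPM. RPL13 of the 60S subunit was at 1134 CPM against 540.5, 606 and 611 CPM.

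The deviation of vehicle replicate 3 rose with the GC content of the transcript across the members (Pearson r = 0.70, Spearman rho = 0.71, n = 79 genes, which share the same libraries and are not independent). Of the 27 members with the lowest GC content (42.1% to 47.6%), none was higher in this library than the mean of the other vehicle libraries, and their median deviation was -1.02. Of the 26 with the highest GC content (52.4% to 63.6%), 15 were higher, with a median deviation of 0.11. The same relation held across all 13970 tested genes with a GC value (r = 0.73). The slope over the members was 0.777 log2 units per 10 percentage points of GC in vehicle replicate 3. In the other 7 libraries, each set against the rest of its group without vehicle replicate 3, it lay between -0.0825 and 0.105. The part of GC content in the deviation was not tested.

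**Figure D1:**
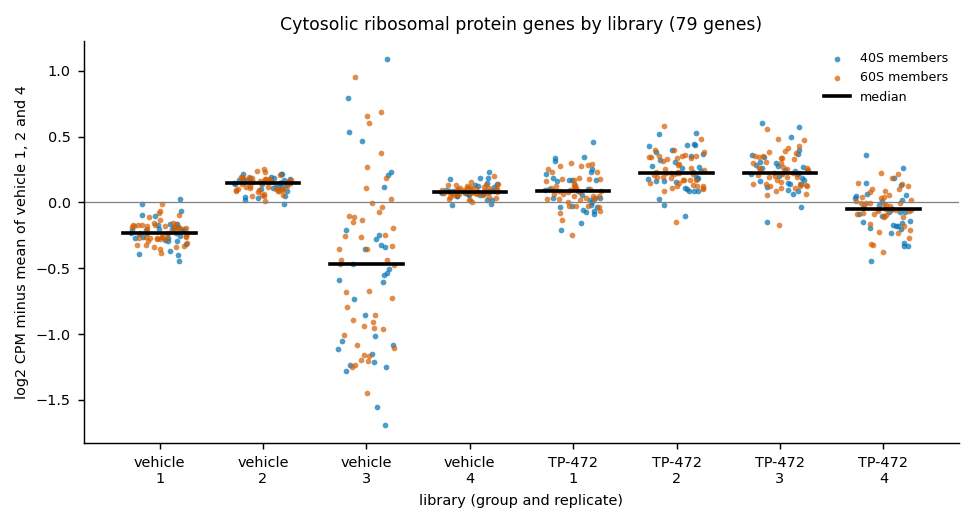
Log2 CPM of each of the 79 tested RP genes in each library, minus the mean of vehicle replicates 1, 2 and 4; points are genes, coloured by subunit, and bars are library medians. The members of vehicle replicate 3 spread from -1.69 to 1.09, with a median of -0.47, and the next lowest medians are those of vehicle replicate 1 (-0.23) and TP-472 replicate 4 (-0.05).

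**Figure D2:**
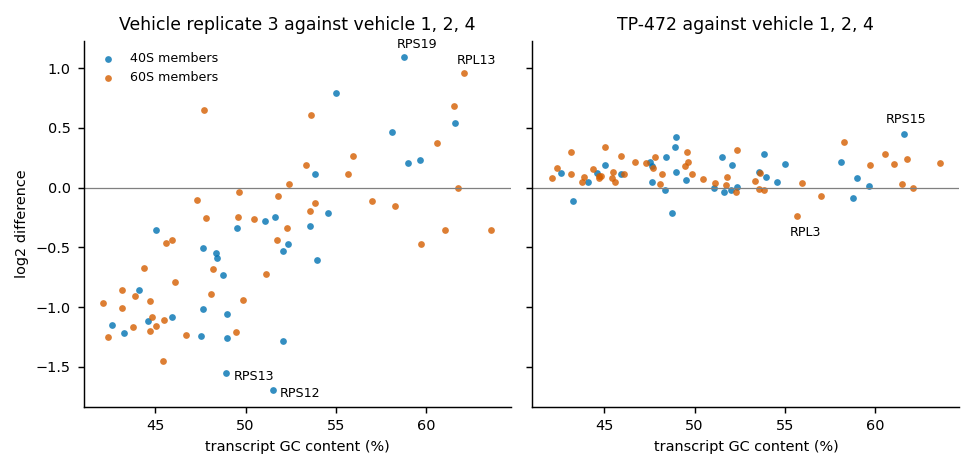
Log2 difference of each RP gene against the GC content of its transcript (in percent), for vehicle replicate 3 over the other vehicle libraries (left) and for TP-472 over the same vehicle libraries (right); points are genes. The left panel has r = 0.70 and the right panel r = 0.01 across 79 genes.

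The summed RP share of the RNA overlapped between the groups. For vehicle, replicates 1 to 4 gave 3.67%, 4.20%, 3.41% and 4.18%. For TP-472, they gave 4.27%, 4.47%, 4.56% and 4.03%, and values of single libraries below follow this order. The groups overlapped, because TP-472 replicate 4 was below vehicle replicates 2 and 4. The mean share was 4.02% ± 0.298 (SD, n = 3) in vehicle without replicate 3, 3.87% ± 0.389 (SD, n = 4) with it, and 4.33% ± 0.232 (SD, n = 4) in TP-472. The ratio of 40S to 60S counts was 0.699, 0.707, 0.646 and 0.704 in the vehicle libraries and 0.697, 0.710, 0.701 and 0.686 in the TP-472 libraries, so that vehicle replicate 3 had the lowest ratio. These are shares of the counts of each library, so they do not measure the number of cells or the amount of RNA per cell.

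Within each group, libraries with a smaller RP share also differed in other classes of RNA. The share of counts on the small noncoding RNAs 7SL and 7SK was 8.26%, 11.6%, 5.46% and 11.4% in vehicle and 10.6%, 14.2%, 13.99% and 9.38% in TP-472. It was thus lowest in vehicle replicates 3 and 1 and in TP-472 replicate 4, the libraries with the smallest RP shares of their groups. The share on mitochondrially encoded genes was 0.405%, 0.312%, 0.424% and 0.285% in vehicle and 0.275%, 0.216%, 0.199% and 0.282% in TP-472, and was highest in those same libraries. Replication-dependent histone genes took 1.398% of the counts in vehicle replicate 3 and 0.983% to 1.02% in the other vehicle libraries, against 0.742% to 0.850% in TP-472. The part of these differences in the RP results was not tested.

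The comparison of TP-472 with vehicle asked which genes respond to the inhibitor. Among the RP genes, few changes passed the test in edgeR, and all of these were smaller than 1.5-fold with TMM scaling and the expression filter. With the GC trend removed from 8 libraries, 2 members passed and were over 1.5-fold, and without the filter RPL3L did so. The share of all genes called is not given for these settings, so these exceptions cannot be set against it. With all 8 libraries, 2 of 79 members had significantly higher levels in uLMS cells given TP-472 (2.53%, against 17.2% of all genes tested): RPL35 and RPL14, both of the 60S subunit. None was lower (19.1% of all genes), and in either direction 2 of 79 passed against 36.3% of all genes tested. No member was past both the adjusted p of 0.05 and 1.5-fold in edgeR (26.9% of all genes), nor in DESeq2 (30.0%) or limma-voom (26.0%). At an unadjusted p under 0.05, edgeR gave 6 members higher (22.3% of all genes) and 1 lower (25.5%), of which 1 was over 1.5-fold (31.1%). DESeq2 passed 3 higher (19.9% of all genes) and 1 lower (23.7%) after adjustment, and limma-voom 1 higher (18.0%) and 0 lower (17.2%). The standard error of the log2 fold change was 0.17 at the median over the members.

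Without vehicle replicate 3, 9 of 79 members passed (11.4%, against 57.1% of all 13879 genes tested). Of these, 8 were higher in TP-472 (28.6% of all genes) and RPL3 was lower (28.5% of all genes). Again none was over 1.5-fold in edgeR (25.0% of all genes), DESeq2 (25.1%) or limma-voom (24.9%), nor in edgeR at an unadjusted p under 0.05 (25.4%). The approximate 95% interval of the fold change lay wholly within 1.5-fold in either direction for 72 of the 79 members, against 49.6% of all genes. For the other members (RPL35, RPL39L, RPL5, RPS12, RPS13, RPS15 and RPS26), the upper end of the interval passed 1.5-fold. With all 8 libraries, 32 members had such an interval within 1.5-fold (25.9% of all genes).

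The median log2 fold change over the members was 0.26 with 8 libraries and 0.11 without vehicle replicate 3, against -0.03 and 0.00 over all genes tested, and 68 and 66 of the 79 members had a value above 0, as had 6780 of 14073 and 6939 of 13879 genes. The 40S and 60S medians without vehicle replicate 3 were 0.12 and 0.11. The sign of this median depended on vehicle replicate 1: with vehicle replicates 1 and 3 both left out, it was -0.0033, and 4 members passed as higher (28.4% of all genes) and 3 as lower (28.3%). With TP-472 replicate 4 left out beside vehicle replicate 3, 22 members passed as higher (28.2% of all genes) and 1 as lower (29.4%), while leaving out TP-472 replicate 1, 2 or 3 left 4, 4 and 2 calls in all (50.0%, 49.7% and 49.9% of all genes). The members' fold changes without vehicle replicate 3 did not follow GC content (r = 0.01, rho = -0.06, n = 79 genes), whereas with it they fell as GC content rose (r = -0.47).

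**Figure D3:**
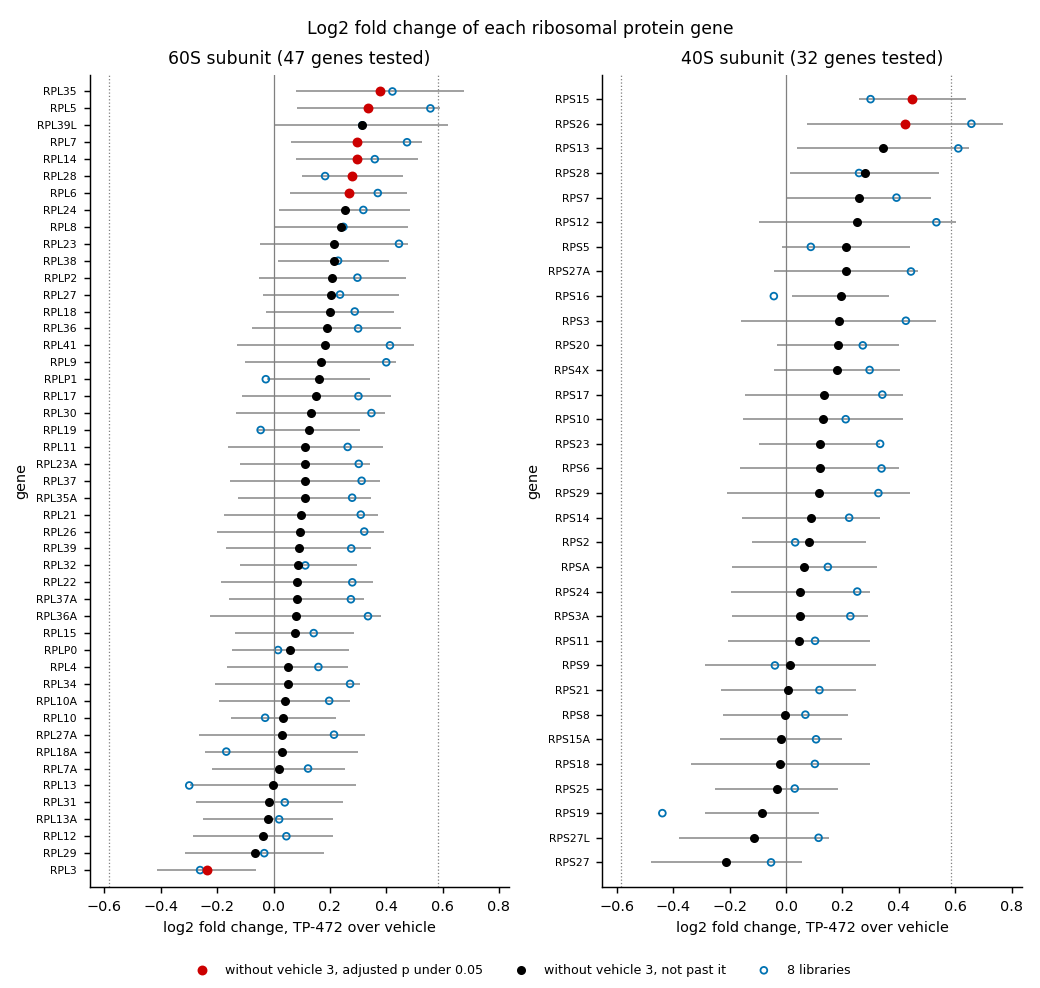
Log2 fold change of TP-472 over vehicle for each tested RP gene, 60S on the left and 40S on the right; filled points with bars give the fit without vehicle replicate 3 and its approximate 95% interval, red where the adjusted p was under 0.05, open circles the fit with 8 libraries, and dotted lines 1.5-fold. Filled points lie between -0.24 (RPL3) and 0.45 (RPS15).

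The 40S member with the largest called rise was RPS15 (chr19:1438358-1440494), a protein of the small subunit head. Its level was 221, 239, 342 and 248 CPM in vehicle and 293, 338, 359 and 303 CPM in TP-472. All TP-472 libraries were above vehicle replicates 1, 2 and 4, while vehicle replicate 3 lay among them. Without that library the log2 fold change was 0.45 ± 0.08 (SE; edgeR adjusted p = 0.00163), and with it 0.30 ± 0.15 (adjusted p = 0.151). With 8 libraries and the GC trend of each library removed, it was 0.65 (adjusted p = 0.00188). With the 8 libraries scaled to their summed RP counts, a scaling chosen after seeing the data, it was 0.06 (edgeR adjusted p = 0.828). RPS15 passed under all 21 alternative settings tried without vehicle replicate 3, RPL28 under 20, RPL5 and RPS26 under 17, RPL35 and RPL3 under 16, RPL14 under 15, RPL7 under 14 and RPL6 under 12.

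RPS26 (chr12:56041351-56044697), a 40S protein at the mRNA exit channel, was the other called 40S member. Its level was 120.0, 189, 68.5 and 192 CPM in vehicle and 225, 236, 243 and 196 CPM in TP-472. The groups did not overlap, but TP-472 replicate 4 exceeded vehicle replicate 4 by little. The log2 fold change was 0.42 ± 0.15 without vehicle replicate 3 (edgeR adjusted p = 0.0404) and 0.66 ± 0.29 with it (adjusted p = 0.103).

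Among the 60S members, RPL35 (chr9:124857880-124861981), which lines the outside of the peptide exit tunnel, was at 369, 459, 383 and 453 CPM in vehicle and 516, 637, 627 and 449.7 CPM in TP-472. TP-472 replicate 4 lay below vehicle replicates 2 and 4, so the groups overlapped. The log2 fold change was 0.38 ± 0.13 without vehicle replicate 3 (edgeR adjusted p = 0.0343) and 0.42 ± 0.15 with it (adjusted p = 0.0495). RPL14 (chr3:40457292-40468587) was at 301, 368, 291 and 372 CPM in vehicle and 423, 439.9, 465 and 380.4 CPM in TP-472. Here the groups did not overlap, and the log2 fold change was 0.30 ± 0.10 without vehicle replicate 3 (edgeR adjusted p = 0.0257) and 0.36 ± 0.12 with it (adjusted p = 0.0499). With 8 libraries as the start, RPL35 and RPL14 each passed under 9 of 22 alternatives, and both lost the threshold when vehicle replicate 1, 2 or 4 or TP-472 replicate 1, 2 or 3 was left out, RPL14 also without TP-472 replicate 4.

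RPL5 and RPL11 bind 5S rRNA and, when free of the ribosome, the ubiquitin ligase MDM2. RPL5 (chr1:92831983-92841924) was at 476, 641, 259 and 629.8 CPM in vehicle and 709.7, 760.3, 805 and 674 CPM in TP-472, without overlap, and its log2 fold change without vehicle replicate 3 was 0.34 ± 0.11 (edgeR adjusted p = 0.0290). With that library it was 0.56 ± 0.26 and did not pass (adjusted p = 0.115). RPL11 was at 544, 752, 409 and 693 CPM in vehicle and 699.7, 770.2, 787 and 621 CPM in TP-472. These groups overlapped, and the log2 fold change of RPL11 was 0.11 ± 0.12 without vehicle replicate 3 (adjusted p = 0.455) and 0.26 ± 0.19 with it (adjusted p = 0.300). The difference between RPL5 and RPL11 was not tested. The other 60S members that passed as higher without vehicle replicate 3 were RPL7 (0.30 ± 0.10), RPL28 (0.28 ± 0.08) and RPL6 (0.27 ± 0.09). With 8 libraries none of them passed, at 0.47 ± 0.21 for RPL7 (adjusted p = 0.0997), 0.18 ± 0.13 for RPL28 (adjusted p = 0.277; 0.49 with the GC trend removed, adjusted p = 0.0121) and 0.37 ± 0.14 for RPL6 (adjusted p = 0.0695).

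RPL3 (chr22:39312882-39320389), a core protein near the peptidyl transferase centre, was the only member that passed as lower without vehicle replicate 3. It was at 886, 971, 1009 and 948 CPM in vehicle and 787, 844, 832 and 721 CPM in TP-472. Every TP-472 library lay below every vehicle library, vehicle replicate 3 included. The log2 fold change was -0.24 ± 0.08 without vehicle replicate 3 (edgeR adjusted p = 0.0266) and -0.26 ± 0.11 with it (adjusted p = 0.0824). Over 22 alternatives to the fit with 8 libraries, the value ran from -0.48 to -0.12, and RPL3 passed under 4 of them. Groups without overlap were seen for 7 members higher and 1 lower with 8 libraries (23.8% and 21.6% of all genes). Without vehicle replicate 3, they were seen for 8 members higher and 1 lower (29.9% and 28.6% of all genes).

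**Figure D4:**
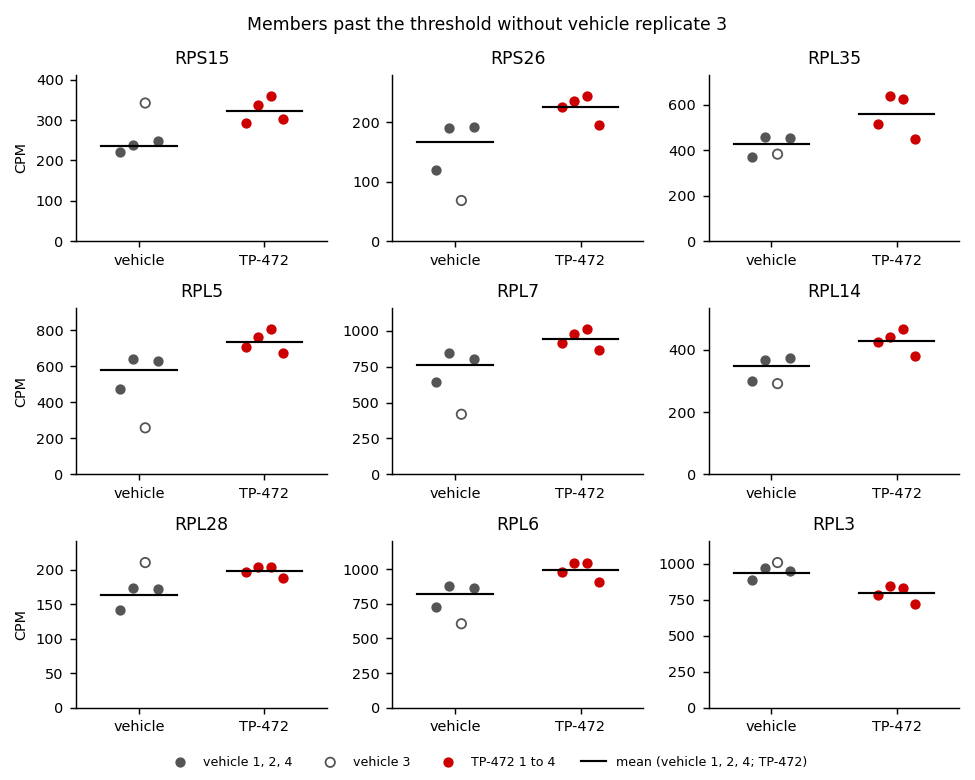
CPM of the 9 RP genes with an adjusted p under 0.05 without vehicle replicate 3, by library; open circles are vehicle replicate 3, and lines are the means of vehicle replicates 1, 2 and 4 and of TP-472. In RPL3 all 4 TP-472 points (721 to 844 CPM) lie below all vehicle points (886 to 1009 CPM).

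When the libraries were instead scaled to their summed RP counts, which compares members with one another, 10 of 79 members passed without vehicle replicate 3 (40.8% of all genes under this scaling). This scaling was chosen after seeing the data. RPS15, RPS26, RPL35, RPS13, RPL5, RPL7 and RPL14 were higher, by 0.19 to 0.33 on the log2 scale. RPL3 (-0.35 ± 0.07, edgeR adjusted p = 0.00523), RPS27 (-0.32 ± 0.07, adjusted p = 0.00675) and RPL29 (-0.18 ± 0.06, adjusted p = 0.0488) were lower. RPS27, a zinc-finger protein of the 40S subunit, was at 355, 475, 252 and 433 CPM in vehicle and 362, 413, 378 and 308 CPM in TP-472 under the TMM scaling. These groups overlapped, and its log2 fold change there was -0.21 ± 0.12 without vehicle replicate 3 (adjusted p = 0.155) and -0.05 ± 0.20 with it.

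The most abundant members per kb of transcript did not pass the test. RPL41, the shortest RP, had 1910 CPM per kb (mean of 7 libraries without vehicle replicate 3), RPS18 1656 and RPS2 1544, against a median of 684 over the 79 members. Lengths were taken from the shortest principal transcript of the annotation, and for 5 members (RPL27A, RPL37, RPL37A, RPS23 and RPS27L) this transcript is over 3000 bases, which lowers their value. The log2 fold changes without vehicle replicate 3 were 0.18 ± 0.14 for RPL41, -0.02 ± 0.14 for RPS18 and 0.08 ± 0.09 for RPS2. With it they were 0.41 ± 0.28, 0.10 ± 0.19 and 0.03 ± 0.12. RPS6, the 40S protein phosphorylated by S6 kinase downstream of mTORC1, was at 748, 1012, 409.7 and 995 CPM in vehicle and 965, 1093, 1078 and 865 CPM in TP-472. The groups overlapped, with a log2 fold change of 0.12 ± 0.12 without vehicle replicate 3 (approximate 95% interval -0.16 to 0.40) and 0.34 ± 0.26 with it.

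The P-stalk proteins recruit elongation factors to the 60S subunit. RPLP0, their anchor, was at 1471, 1630.3, 1789 and 1619 CPM in vehicle and 1623, 1771, 1734 and 1453 CPM in TP-472, and the groups overlapped. The log2 fold changes without vehicle replicate 3 were 0.06 ± 0.09 for RPLP0, 0.16 ± 0.08 for RPLP1 and 0.21 ± 0.12 for RPLP2, and none passed the test. With 8 libraries they were 0.02 ± 0.12, -0.03 ± 0.17 and 0.30 ± 0.15, and none passed. RPSA, the 40S protein also known as the laminin receptor, gave 0.06 ± 0.11 without vehicle replicate 3 and 0.15 ± 0.15 with it.

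Paralogs of RP genes were read apart from their parents. RPL3L, the counterpart of RPL3 in heart and skeletal muscle, was under the expression filter. The vehicle libraries held 4, 2, 1 and 1 of its counts and the TP-472 libraries 33, 42, 40 and 30. All TP-472 libraries were above all vehicle libraries, and the ratio of the summed counts, 145 against 8, was 17.3 after scaling (95% interval 8.53 to 40.8, covering counting error only). The exact two-sided permutation test over 70 assignments of the libraries gave p = 0.0286, the smallest value this design allows. RPL10L, a testis paralog of RPL10, had 1 count in TP-472 replicate 3 and none in the other libraries, and RPL10 itself had a log2 fold change of 0.04 ± 0.08 without vehicle replicate 3 and -0.03 ± 0.12 with it.

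RPL39L, the testis-enriched paralog of RPL39 that is also found in tumour cells, was at 25.1, 34.5, 32.2 and 36.3 CPM in vehicle and 37.0, 44.1, 43.9 and 34.5 CPM in TP-472. The groups overlapped, and the log2 fold change without vehicle replicate 3 was 0.31 ± 0.14 (edgeR adjusted p = 0.0750), beside 0.09 ± 0.11 for RPL39. With 8 libraries the values were 0.32 ± 0.15 and 0.28 ± 0.22. RPS27L, a paralog of RPS27, was at 32.9, 45.1, 17.3 and 44.0 CPM in vehicle and 36.1, 37.5, 43.1 and 34.3 CPM in TP-472, with a log2 fold change of -0.11 ± 0.12 without vehicle replicate 3 and 0.12 ± 0.27 with it. Paralogs share sequence with their parents, so the division of reads between them by the estimated counts is uncertain.

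Genes of the ribosome that the symbol rule does not cover were listed apart. In the fit without vehicle replicate 3, 5 of 7 such genes rose (28.6% of all genes) and none fell (28.5%), with a median log2 fold change of 0.40. With 8 libraries 3 rose (17.2% of all genes) and none fell (19.1%), with a median of 0.45. FAU, which encodes RPS30 fused to a ubiquitin-like protein, was at 151, 177, 169 and 181 CPM in vehicle and 219.6, 264, 249.6 and 193 CPM in TP-472, without overlap. Its log2 fold change was 0.44 ± 0.11 without vehicle replicate 3 (edgeR adjusted p = 0.00788) and 0.45 ± 0.12 with it (adjusted p = 0.0223). With 8 libraries, FAU lost the threshold when vehicle replicate 1 or TP-472 replicate 1, 2 or 3 was left out. RPL26L1, a paralog of RPL26, rose by 0.74 ± 0.10 without vehicle replicate 3 (adjusted p = 0.000211) and by 0.78 ± 0.12 with it. RACK1, a scaffold on the 40S head, gave 0.13 ± 0.09 without vehicle replicate 3 (adjusted p = 0.267) and 0.15 ± 0.11 with it.

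Of 16 other genes with TOP messages, 4 rose and 1 fell without vehicle replicate 3 (28.6% and 28.5% of all genes), and 2 rose and none fell with 8 libraries (17.2% and 19.1% of all genes). The median log2 fold changes were 0.05 and 0.16. NPM1, a nucleolar chaperone, rose by 0.52 ± 0.12 without that library (edgeR adjusted p = 0.00599), and BTF3, a nascent-chain factor, by 0.37 ± 0.09 (adjusted p = 0.00582). With 8 libraries they rose by 0.73 ± 0.25 (adjusted p = 0.0496) and 0.48 ± 0.14 (adjusted p = 0.0277), and both lost the threshold when vehicle replicate 1 or TP-472 replicate 1, 2 or 3 was left out, NPM1 also without TP-472 replicate 4. EIF4B, an initiation factor, fell by 0.29 on the log2 scale without vehicle replicate 3 (adjusted p = 0.0199), where it lost the threshold when vehicle replicate 2 or 4 or TP-472 replicate 2 or 3 was also left out. With 8 libraries it gave -0.11 ± 0.20 (adjusted p = 0.669). EEF1A1, the most abundant of these messages, gave 0.03 ± 0.13 without vehicle replicate 3 (adjusted p = 0.854) and 0.21 ± 0.22 with it.

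Of the 13 regulators of TOP messages, 3 rose and 1 fell without vehicle replicate 3 (28.6% and 28.5% of all genes), and 1 rose and 1 fell with it (17.2% and 19.1%). Those that rose without it were MYC, LARP4 (edgeR adjusted p = 0.000371) and EIF4EBP1 (edgeR adjusted p = 0.00484). With it, LARP4 rose (edgeR adjusted p = 0.0273) and EIF4EBP1 did not pass (edgeR adjusted p = 0.464). How LARP4 and EIF4EBP1 depend on the alternative settings is not given. MYC, which activates transcription of ribosome genes, was at 132, 119, 282 and 124 CPM in vehicle and 199.6, 189.8, 189 and 210.4 CPM in TP-472. Vehicle replicate 3 was the highest of all, and the log2 fold change was 0.65 ± 0.07 without it (edgeR adjusted p = 4.04e-05) and 0.26 ± 0.27 with it (adjusted p = 0.455), where removing the GC trend gave 0.61 (adjusted p = 0.00312). TSC2, an inhibitor of mTORC1 signalling, was at 59.0, 48.5, 140.2 and 48.5 CPM in vehicle and 40.9, 37.8, 35.7 and 38.0 CPM in TP-472, without overlap, and vehicle replicate 3 was again the highest. It fell by 0.46 on the log2 scale without that library (adjusted p = 0.00147) and by 0.96 with it (adjusted p = 0.0485), where it lost the threshold when vehicle replicate 1 or any TP-472 replicate was left out. Without vehicle replicate 3, MTOR gave -0.14 ± 0.06 (adjusted p = 0.0658) and LARP1 -0.30 ± 0.14 (adjusted p = 0.0951), and with it -0.20 ± 0.10 and -0.51 ± 0.21, where neither passed. With the GC trend removed both passed as lower in both fits (adjusted p = 0.0109 and 0.0248 for MTOR and 0.0447 and 0.0364 for LARP1). The share of all genes called with the GC trend removed is not given. These calls, and that of MYC under this setting, cannot be set against it.

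Other factors carry RPs to the ribosome or mature the 60S subunit. Of the 15 RP chaperones, importers and late 60S factors, 14 rose and 1 fell without vehicle replicate 3 (28.6% and 28.5% of all genes), and 12 rose and 1 fell with 8 libraries (17.2% and 19.1%), with medians of 0.77 and 0.71. RRS1, which brings RPL5, RPL11 and 5S rRNA into the pre-60S particle, was at 13.3, 15.3, 31.4 and 15.01 CPM in vehicle and 44.9, 42.6, 46.1 and 42.4 CPM in TP-472. All TP-472 libraries were above all vehicle libraries, with a log2 fold change of 1.59 ± 0.07 without vehicle replicate 3 (edgeR adjusted p = 6.61e-07) and 1.23 ± 0.26 with it (adjusted p = 0.00719). Its partner RPF2 rose by 1.06 ± 0.09 without that library (adjusted p = 1.95e-05), and SBDS, which releases EIF6 from the new 60S subunit, by 0.90 ± 0.08 (adjusted p = 2.34e-05). With 8 libraries they rose by 1.23 ± 0.20 (adjusted p = 0.00222) and 1.06 ± 0.18 (adjusted p = 0.00283). The importin IPO9 was the gene that fell, by 0.26 on the log2 scale without vehicle replicate 3 (adjusted p = 0.00654) and by 0.27 with it (adjusted p = 0.0442), where it lost the threshold when any other library was left out.

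MDM2 and MDM4, which act in the response to free RPL5 and RPL11, were lower in TP-472. MDM2 was at 195, 179, 122 and 165 CPM in vehicle and 121, 117, 120.4 and 134 CPM in TP-472. Vehicle replicate 3 lay within the TP-472 range and the other vehicle libraries above it. MDM2 fell by 0.55 on the log2 scale without vehicle replicate 3 (edgeR adjusted p = 0.000236) and by 0.42 with it (adjusted p = 0.0485), and in the latter fit it lost the threshold when any library other than vehicle replicate 3 was left out. MDM4 was at 139.9, 105, 147 and 113 CPM in vehicle and 78.9, 69.5, 68.6 and 95.6 CPM in TP-472, without overlap, and fell by 0.62 on the log2 scale without vehicle replicate 3 (adjusted p = 0.00336) and by 0.69 with it (adjusted p = 0.00937).

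The proteins of the mitochondrial ribosome are encoded by a separate family of nuclear genes. All 78 passed the filter, and without vehicle replicate 3, 49 rose and 1 (MRPL42) fell, together 64.1% against 57.1% of all genes tested. Of all genes tested, 28.6% were called higher in that fit. With 8 libraries, 27 rose and none fell in edgeR (34.6%, against 17.2% of all genes called higher and 19.1% lower). Their median log2 fold change was 0.34 and 0.40 in these fits, beside 0.11 and 0.26 for the cytosolic members. The difference between the families was not tested.

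**Figure D5:**
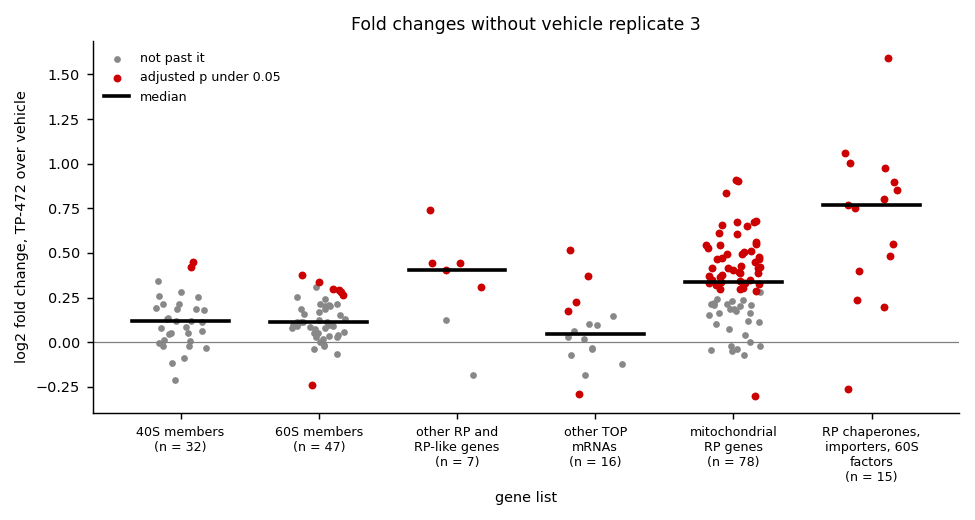
Log2 fold change of TP-472 over vehicle without vehicle replicate 3 for the cytosolic RP genes and related lists; points are genes, red where the adjusted p was under 0.05, and bars are medians. The medians are 0.12 (40S), 0.11 (60S), 0.34 (mitochondrial RP genes) and 0.77 (RP chaperones, importers and late 60S factors).

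The members are spread over 21 chromosomes, with 12 of 81 on chromosome 19. Introns of RP genes often carry small nucleolar RNAs (snoRNAs), which guide modification of rRNA. By the annotation, 28 members span at least 1 snoRNA gene on the same strand, 60 in all, and 2 of these 28, RPL3 and RPL5, passed the test without vehicle replicate 3 (against 11.4% of the 79 tested members and 57.1% of all genes).

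Processed pseudogenes of RP genes are numerous and resemble their parents, so reads can be divided between them. The table lists 1194 of them, 497 with a count in at least 1 library and 18 past the filter with 8 libraries. Their summed counts equalled 2.10% of the RP counts in vehicle replicate 3 and 0.832% to 1.16% in the other libraries. RPL3P4 had 3463 counts in vehicle replicate 3 and 0 in each of the others, and in that library reads of RPL3 and of RPL3P4 cannot be told apart. Adding pseudogene counts to the parents moved no member by more than RPL23A, whose log2 fold change went from 0.30 to 0.09 with 8 libraries and from 0.11 to 0.03 without vehicle replicate 3. The counts of members that passed were 2 and 9 under that setting, as before. The share of all genes called under it is not given.

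The labelled cell line was checked against marker genes. The smooth muscle genes ACTA2 (165 CPM in vehicle without replicate 3) and TAGLN (31.7 CPM) were present, DES (3.32 CPM) and CNN1 (1.31 CPM) were low, and MYH11 was near 0. Of 11 epithelial, endothelial and leukocyte markers only KRT8 and KRT18 passed the filter, and PTPRC, CD3E and CDH5 were at 0 in every vehicle library. Without vehicle replicate 3, 3 of 4 tested smooth muscle markers and 3 of 4 mesenchymal markers were lower in TP-472 (28.5% of all genes), while KRT18 and FN1 were higher (28.6%). With 8 libraries, 4 of 5 and 2 of 4 were lower (19.1% of all genes). DES was tested only with 8 libraries. It fell to 0.63 CPM in TP-472, so without vehicle replicate 3 too few libraries were over 1 CPM for the filter. The part of these markers in the RP results was not tested.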

How the data were processed

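Per the labels and the study's methods, the authors made TruSeq libraries from total RNA of SK-UT-1 cells, sequenced them on a NovaSeq 6000, and quantified transcripts with Salmon 1.4.0 on GRCh38. The deposited values are estimated counts per gene (expected counts, summed from transcripts with tximport and GENCODE 34), not normalized. They were rounded to whole numbers here. Genes over 1 CPM in at least 4 libraries were tested with edgeR 4.0.16 (TMM scaling, quasi-likelihood test, R 4.3.3), comparing TP-472 with vehicle over 8 libraries and without vehicle replicate 3, with Benjamini-Hochberg adjustment over all genes tested and a threshold of 0.05. Without vehicle replicate 3, this filter leaves out genes over 1 CPM in the vehicle libraries alone, but keeps those over it in the TP-472 libraries alone. CPM are on the TMM scale of 8 libraries. Log2 deviations of libraries used a pseudocount of 0.1. Gene positions, transcript lengths and GC content came from GENCODE 29, and starts from RefSeq (GRCh38.p14). The members, the gene lists and the tests were chosen with earlier results of these data known. Named members were those past the threshold with the largest changes (up to 6 per direction and fit), the 3 most abundant per kb, the 3 farthest out in vehicle replicate 3, and fixed paralogs, stalk, RPL5 and RPL11, RPS6 and RPSA. RPS19, RPL13, RPL29, RPL28, RPL6 and RPL23A lie outside this rule and were named after their values were seen. Alternatives were DESeq2 1.42.0, limma-voom (limma 3.58.1), other scalings and filters, unrounded counts, pseudogene counts added, protein-coding genes alone, a GC trend removed, a replicate block and each library left out. The fit was also run on simulated data, whose outcome is not reported here and on which no result rests. The closest 2 libraries, vehicle replicates 2 and 4, had a mean chi-square of 11.2 per gene, above sampling noise, so none was counted as a copy. The count precision per gene was limited by the depth of 32574716 to 38545695 counts per library. Some genes of these lists are counted in their totals and not reported here by name.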

Additional observations from a re-analysis of the deposited data

Results flagged for a closer look

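Values of vehicle replicate 3 lay apart from the other 3 vehicle libraries for 3 of the 60 groups of 4 libraries examined. The measures were RP share, 40S to 60S ratio, RP pseudogene counts relative to RP counts and to all counts, and the named members. Each was taken once in vehicle and once in TP-472. Chance gives about 1 in 20 for groups chosen without regard to their values. Some named members were chosen by their calls, and RPS12, RPS13 and RPL36A by their distance in vehicle replicate 3. That rate therefore does not strictly apply, and the flagged groups are given as a description. No TP-472 library lay apart by the same limit. The ratio of 40S to 60S counts was 0.646 in vehicle replicate 3 and 0.699 to 0.707 in the other vehicle libraries. RPLP1, a P-stalk protein, was at 539 CPM in vehicle replicate 3 and at 327 to 355 CPM in the others. RP pseudogenes took 0.0717% of all counts in vehicle replicate 3 and 0.0373% to 0.0426% in the others. Their causes were not tested.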

How the results depend on the processing

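With 8 libraries, where 2 RP genes passed, 0 passed under RLE or upper-quartile scaling and with the replicate block, 1 under limma-voom, with protein-coding genes alone, without a low-count filter (RPL3L, over 1.5-fold) and with scaling to summed RP counts (chosen after seeing the data), and 4 under total-count scaling, DESeq2 and with the GC trend removed (2 of them over 1.5-fold, and RPS15 and RPL28 among the 4). Among these settings, the share of all genes called is given above only for DESeq2 and limma-voom. The other counts cannot be set against a general move in calls. Leaving out single libraries gave 0 to 9. The 9 passed without vehicle replicate 3, where 57.1% of all genes passed, against 36.3% with all 8 libraries. Without vehicle replicate 3, where 9 passed, total-count scaling gave 20 and the replicate block 3, leaving out a further library gave 2 to 23, and 1 member, RPL3L, was over 1.5-fold without a low-count filter. The share of all genes called is not given for these scaling, block and filter settings. It was 49.9% without TP-472 replicate 3, where 2 members passed. Without TP-472 replicate 4, where 23 passed, 28.2% of all genes were called higher and 29.4% lower. The median log2 fold change without vehicle replicate 3 ran from -0.0033 (also without vehicle replicate 1) to 0.19 over the single libraries left out. With 8 libraries, genes that did not pass changed sign: under scaling to summed RP counts RPL28 (-0.035), RACK1 (-0.055), RPLP0 (-0.20), RPS18 (-0.084), RPS2 (-0.19), RPS27L (-0.038) and RPSA (-0.046), under total-count scaling RPLP0 (-0.019) and RPS2 (-0.0042), under upper-quartile scaling and a filter at 5 CPM RPLP0 (-0.0048 and -0.0034), and with the GC trend removed RPL10 (0.13). Over single libraries left out, RPL10 ran from -0.10 to 0.035, RPLP0 from -0.037 to 0.080, RPLP1 from -0.11 to 0.16, RPS18 from -0.021 to 0.21, RPS2 from -0.013 to 0.092, RPS27 from -0.21 to 0.067 and RPS27L from -0.11 to 0.26. In the set without vehicle replicate 3, several members and EEF1A1, none past the threshold there, also changed sign: under scaling to summed RP counts RPS2 (-0.036), RPLP0 (-0.055), RPSA (-0.047), RPL10 (-0.075), RPL39 (-0.012) and EEF1A1 (-0.0716), and with the GC trend removed RPSA (-0.0112) and EEF1A1 (-0.049). Over further single libraries left out, RPS18 ran from -0.14 to 0.077, RPSA from -0.0277 to 0.14, RPS6 from -0.013 to 0.19, RPL11 from -0.015 to 0.21, RPL10 from -0.033 to 0.088, RPL39 from -0.041 to 0.17, RPL23A from -0.016 to 0.19 and EEF1A1 from -0.084 to 0.097. Over 41 genes whose fold changes the text gives, each in both sets, 1560 combinations of gene and alternative kept direction and side of the threshold, 127 kept the direction and lost the threshold, 33 gained it and 43 changed sign. The cause of these changes was not tested. Deviations of same-numbered libraries correlated at -0.19 to 0.12, and 0 of 4 vehicle libraries correlated best with its own number. With 4 libraries per group, these values cannot show whether same-numbered libraries were handled together. Without vehicle replicate 3 the median standard error of the members was 0.11 log2 units, which limits the changes that could be detected.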
